A study of Homo sapiens with 12 samples.

Results

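Peaks of open chromatin on the sequences of the human assembly that lie outside the chromosomes were described in KYSE150 and KYSE510, 2 established lines of human oesophageal squamous cell carcinoma (ESCC). The members were all deposited peaks whose sequence name was not a chromosome from 1 to 22, X or Y, merged over the 12 libraries within each sequence wherever they shared at least 1 bp. This gave 3306 regions of 2365104 in the whole series, built from 5276 of the 4231443 peaks, on 108 sequences. Of these sequences, 15 carried a name that begins with GL and 93 a name that begins with KI, and 0 rows named the mitochondrial sequence. No gene annotation of these sequences was used beyond the ribosomal genes named below, and no peak sequence is printed.

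The libraries were made by ATAC-seq, in which a transposase cuts and tags accessible DNA so that its fragments can be sequenced. Each line had 3 control libraries and 3 libraries labelled as silenced for HCP5, a long non-coding RNA, 4 groups in all. All cells were grown in RPMI-1640 with fetal bovine serum. How HCP5 was silenced, what the control cells received and whether the libraries of a group came from separate cultures were not given in the sources used here. The p-values therefore measure the spread between these libraries, which may be technical. The series title names UTP3, a nucleolar protein of the complex that matures the small ribosomal subunit, and ribosomal DNA lies on some of the sequences described here.

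An assembly holds unlocalised scaffolds, which are known to belong to a chromosome but not where, and unplaced scaffolds, whose chromosome is not known. Both are rich in repeats and in sequence that resembles other parts of the genome. A few carry copies of the ribosomal DNA unit, which RNA polymerase I transcribes in the nucleolus into the 45S precursor of the 18S, 5.8S and 28S ribosomal RNAs. The genome holds many near-identical copies of that unit, and an assembly shows only some of them. How reads with several equally good places were treated was not given in the sources used here, so a peak on such a sequence may hold reads from other copies.

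Peak height, the deposited pileup, is the highest number of overlapping fragments within a peak, in whole numbers. Fold enrichment is that height over a local background. The number of reads is unknown, and heights are not scaled between libraries. Over the 28353 regions of any sequence that were called in all 12 libraries, the median height was 7 to 9 in the libraries of KYSE150 and 11 to 13 in those of KYSE510. Every list reached up to a p-value of 0.00987. In KYSE150 the lowest peaks had a height of 1 and in KYSE510 a height of 2, so the lines differ in how weak a peak was listed. Line cannot be told apart from sequencing and peak calling in any comparison between the lines.

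KYSE150 libraries had several times as many non-chromosomal peaks as KYSE510 libraries, and nearly all of the surplus was low. The KYSE150 control libraries held 799, 829 and 779 such peaks and the silenced libraries 694, 859 and 672. In KYSE510 the control libraries held 119, 122 and 107 and the silenced libraries 85, 104 and 107. No library of one line came near a library of the other. The difference between the means of the lines was 664.7 peaks (772.0 ± 74.4 against 107.3 ± 13.1, SD, n = 6 each; two-sided exact permutation test, p = 0.002165, the smallest possible, adjusted p = 0.00758 over 7 tests). Counting only peaks of height 3 or more turned the direction, with 73.7 ± 9.35 in KYSE150 and 93.2 ± 8.86 in KYSE510 (SD, n = 6 each; exact permutation test, p = 0.0108). The whole lists, over all sequences, went the same 2 ways. They held 547125 to 630780 peaks in KYSE150 and 115868 to 135948 in KYSE510. At a height of 3 or more they held 52933 to 63375 and 104302 to 123207.

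As a share of the whole list, non-chromosomal peaks were also more frequent in KYSE150. They made up 0.123 to 0.143% of a KYSE150 list and 0.0716 to 0.0971% of a KYSE510 list. The difference was 0.0484 percentage points (exact permutation test, p = 0.002165, adjusted p = 0.00758). Unlike the number, the share kept this direction among the taller peaks: for peaks of height 3 or more it was 0.123% in KYSE150 and 0.0819% in KYSE510 (exact permutation test, p = 0.002165).

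**Figure D1:**
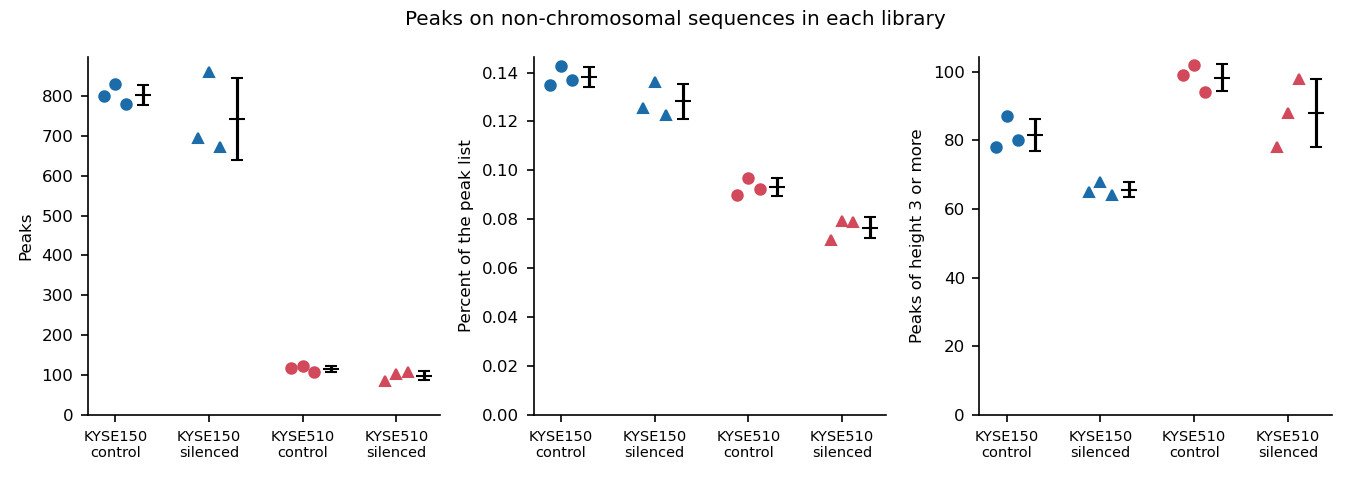
Non-chromosomal peaks in each library, as a number (left), as a percent of the library's list (middle) and as the number of height 3 or more (right); each point is 1 library and the bars give the mean and SD of the 3 libraries of a group. KYSE150 lies above KYSE510 in the first 2 panels, while in the right panel KYSE150 libraries hold 64 to 87 peaks and KYSE510 libraries 78 to 102.

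HCP5 silencing was compared with control within each line for the same quantities. In KYSE150 the number was 802 ± 25.2 in control and 742 ± 102 in silenced libraries (SD, n = 3 each; exact permutation test, p = 0.4, adjusted p = 0.467). The silenced values lay on both sides of the control values, since the second silenced library had the most peaks of all 6. Without it the difference was -119.3 in place of -60.7 peaks, without the first silenced library it was -36.8 and without the third it was -25.8 (exact permutation p = 0.1, 0.8 and 0.8). Among peaks of height 3 or more the KYSE150 groups did not overlap, with 78, 87 and 80 in control and 65, 68 and 64 in silenced libraries (exact permutation test, p = 0.1, the smallest possible). Over all sequences, peaks of that height numbered 60447, 62633 and 63375 in control and 58301, 61611 and 52933 in silenced libraries. Those counts overlapped, with the highest and the lowest on the same sides. In KYSE510 the number was 116 ± 7.94 in control and 98.7 ± 11.9 in silenced libraries (SD, n = 3 each; exact permutation test, p = 0.2, adjusted p = 0.28). The groups overlapped at 107 peaks, and without the first silenced library the difference was -10.5 in place of -17.3 peaks (exact permutation p = 0.3).

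The share of the KYSE510 list did separate the groups. It was 0.0899, 0.0971 and 0.0924% in control libraries and 0.0716, 0.07945 and 0.0787% in silenced libraries, so every silenced library lay below every control library. The difference of -0.0165 percentage points had an exact permutation p of 0.1, the smallest that 3 against 3 libraries allow, and an adjusted p of 0.233. In KYSE150 the share was 0.138 ± 0.00406% in control and 0.128 ± 0.00705% in silenced libraries (SD, n = 3 each; exact permutation test, p = 0.2, adjusted p = 0.28). The log2 ratio of silenced to control number was -0.11 in KYSE150 and -0.23 in KYSE510, and no difference between the lines was detectable (400 relabellings within lines, exact permutation p = 0.505). Which line fell more turned among peaks of height 3 or more, where the difference of the log2 ratios was -0.15 in place of 0.12.

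Most members were weak and were seen once. Of the 3306 regions, 2647 (80.1%) never rose above a height of 1 in any library and 2387 (72.2%) were called in a single library. On the chromosomes 69.3% of regions were called in a single library. Weak peaks were about as common there. A height of 1 was held by 81.1 to 83.6% of a KYSE150 library's non-chromosomal peaks and by 80.8 to 82.5% of its chromosomal peaks. At the other end, 20 regions, or 0.605%, were called in all 12 libraries, against 1.2% of the chromosomal regions. KYSE150 had 3201 of the regions and KYSE510 had 303. The 198 regions called in both lines were 6.19% of the KYSE150 regions and 65.3% of the KYSE510 regions. On the chromosomes the regions called in both lines were 9.47% and 71.8%.

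Within a line, non-chromosomal peaks recurred between replicates less often than chromosomal peaks. In KYSE150, 18.9 ± 1.23% of a library's non-chromosomal peaks were found again, by overlap, in a replicate of that group, against 22.2 ± 1.12% on the chromosomes (SD, n = 6). The share was lower in 6 of 6 libraries (two-sided exact sign-flip permutation test, p = 0.031, the smallest possible, adjusted p = 0.0417 over 4 tests). In KYSE510 it was 46.3 ± 2.48% against 58.6 ± 3.28%, again lower in 6 of 6 libraries (exact permutation test, p = 0.031, adjusted p = 0.0417). Libraries of 1 group share pairs in this measure, so the 6 values are not fully independent.

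The difference in recurrence was widest among peaks of middle height. It was smaller at a height of 1 in KYSE150, 12.8 against 13.7% (exact permutation test, p = 0.031), and at a height of 2 in KYSE510, 14.4 against 15.7% (exact permutation test, p = 0.406). Of KYSE150 peaks with a height of 3 to 9, 55.6 ± 3.64% recurred on non-chromosomal sequences and 74.3 ± 2.11% on chromosomes (SD, n = 6; exact permutation test, p = 0.031). For KYSE510 the same class gave 41.3 ± 2.86% and 52.6 ± 3.97% (SD, n = 6; exact permutation test, p = 0.031). At a height of 10 or more the values were close, 97.3 against 98.6% in KYSE150 (exact permutation test, p = 0.375) and 94.7 against 97.0% in KYSE510 (exact permutation test, p = 0.156). Nearly every tall non-chromosomal peak was thus found again in another library of its group. Each library held only 15 to 23 such peaks in KYSE150 and 14 to 22 in KYSE510, which limits the precision of that class.

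**Figure D2:**
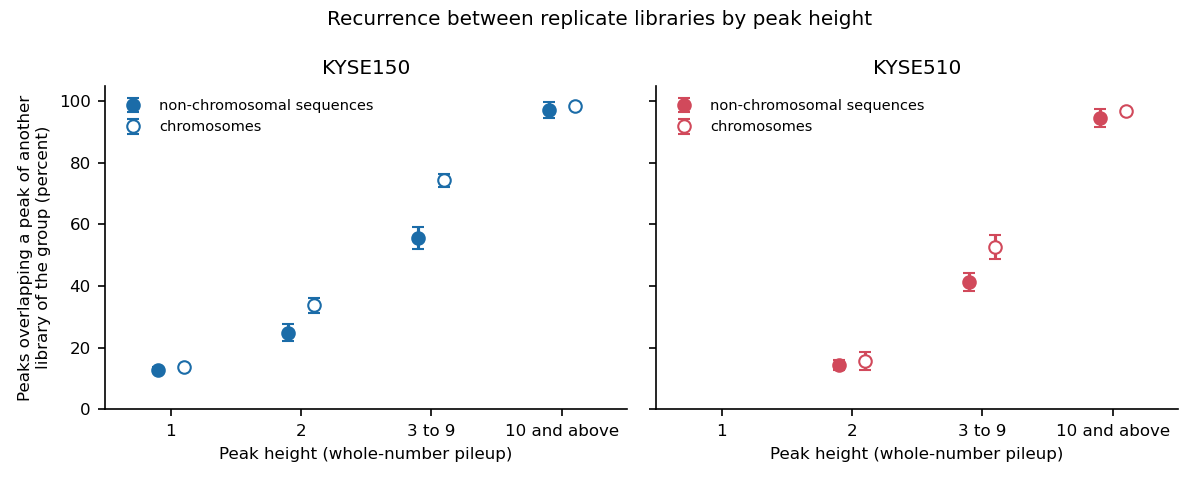
Percent of peaks found again in a replicate of the group, by peak height, for non-chromosomal sequences (filled) and chromosomes (open); points are means over 6 libraries and bars are SD. The gap is widest at heights of 3 to 9 (55.6 against 74.3% in KYSE150, 41.3 against 52.6% in KYSE510), and KYSE510 lists held no peak of height 1.

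Significance by the authors' own FDR followed the same direction. An FDR of at most 0.05 was reached by 15.0 ± 1.32% of non-chromosomal and 15.9 ± 1.40% of chromosomal peaks in KYSE150 (SD, n = 6; lower in 6 of 6 libraries; exact permutation test, p = 0.031, adjusted p = 0.0417). In KYSE510 the shares were 77.6 ± 5.83% and 83.3 ± 1.66% (SD, n = 6; lower in 5 of 6 libraries; exact permutation test, p = 0.0625, adjusted p = 0.0625). A background was implied from each peak's height and fold enrichment. It was set against the most common value among the library's lowest peaks. It was at least 2 times that value at 7.62% of non-chromosomal and 7.35% of chromosomal peaks in KYSE150 (exact permutation test, p = 0.5). In KYSE510 it was so raised at fewer non-chromosomal peaks, 30.5 against 40.4% (exact permutation test, p = 0.031). The 2 kinds of peak were not compared at an equal height in this measure. These backgrounds came from the authors' peak calling.

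The 8 sequences with the most regions held 35.2% of all members. They were KI270442.1 with 280 regions, KI270736.1 with 201, KI270729.1 with 140, GL000218.1 with 117, GL000225.1 with 114, GL000219.1 with 111, and GL000009.2 and GL000216.2 with 100 each. KI270722.1 also had 100 and was left out of the 8 only by its place in the order. The sequences were long at least as far as their last peak, which ended at position 392061 on KI270442.1 and at 181894 on KI270736.1. Many regions on a sequence did not always go with tall peaks. The highest peak was 10 on KI270442.1, 4 on GL000218.1 and 3 on GL000009.2, but 21 on GL000219.1.

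The lines spread their peaks over these sequences differently. KYSE150 had a peak on all 108 sequences and KYSE510 on 49, and 0 sequences had a peak in KYSE510 alone. The KYSE150 libraries held 4632 non-chromosomal peaks against 644, and only their lists reached down to a height of 1. The 59 sequences seen in KYSE150 alone carried 839 peaks, from 1 to 128 each, and none was higher than 4. GL000009.2 had 129 peaks over the KYSE150 libraries and 1 in KYSE510. GL000205.2 went the other way as a share, with 3.195% of the KYSE150 members' peaks and 11.02% of those of KYSE510. Of the KYSE150 peaks, 96.9% on GL000009.2 and 41.2% on GL000205.2 had a height of 1, which no KYSE510 peak had. The spread over sequences was not compared at an equal height, so it cannot be told apart from the length of the lists. In each line, 25 sequences or more were seen in all 6 libraries (57 in KYSE150 and 25 in KYSE510), and 25 were seen in all 12.

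Tall peaks were gathered mostly on other sequences. A height of 10 was reached in at least 1 library by 36 regions on 12 sequences, and 20 of the 36 lay on GL000195.1 (5 regions), GL000205.2 (7) and KI270733.1 (8). The highest values were thus carried by sequences that were not among the 8 with the most regions. They still held 58, 89 and 56 regions. In KYSE150, 88 of 113 peaks of height 10 or more (77.9%) lay on these 3 sequences, and in KYSE510 68 of 102 (66.7%). Of all non-chromosomal peaks they held 8.31% in KYSE150 and 25.0% in KYSE510. The threshold cut through a continuous range, with 9 regions whose highest value was 9 and 6 whose highest value was 10.

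**Figure D3:**
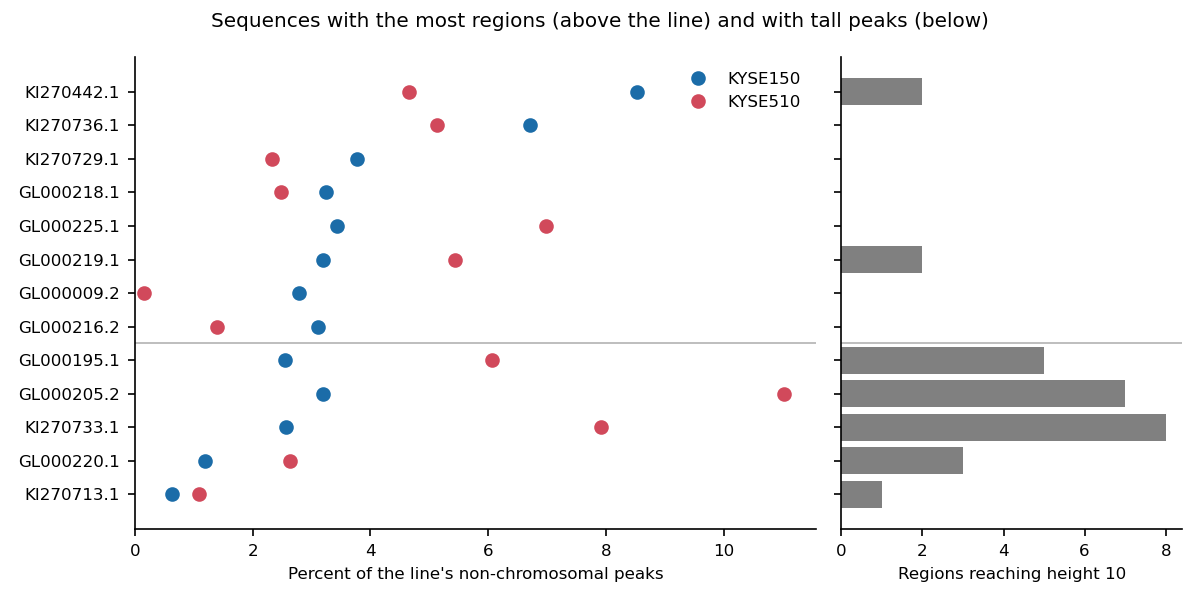
Share of each line's non-chromosomal peaks on the 8 sequences with the most regions (above the grey line) and on 5 sequences with tall peaks (below it), with the number of regions that reached a height of 10 at the right. KI270442.1 leads in KYSE150 with 8.53% of peaks and GL000205.2 in KYSE510 with 11.02%, and 20 of the 36 tall regions lie on GL000195.1, GL000205.2 and KI270733.1.

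The 20 regions called in all 12 libraries lay on 13 sequences, had a median length of 715 bp and were all of height 2 or more. Of the 36 tall regions 17 were among them, and 7 regions reached 10 in all 12 libraries. The tallest was GL000195.1:30584-31030 (447 bp). Its heights were 78, 84 and 84 in KYSE150 control, 67, 78 and 54 in KYSE150 silenced, 95, 77 and 59 in KYSE510 control and 63, 80 and 57 in KYSE510 silenced libraries. The groups overlapped in KYSE510, and in KYSE150 the silenced values reached from below the control values up to their lowest. A shorter neighbour, GL000195.1:31228-31538, was listed in 6 of 12 libraries with heights of 10 to 21, and a further peak at GL000195.1:32324-33001 in all 12 with 18 to 33.

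GL000195.1:68248-68993 (746 bp) was the steadiest of the tall regions. It stood at 36, 39 and 27 in KYSE150 control, 34, 31 and 28 in KYSE150 silenced, 38, 38 and 27 in KYSE510 control and 33, 36 and 39 in KYSE510 silenced libraries. All 4 groups overlapped. Its mean fold-enrichment percentile within a list was 99.9 in KYSE150 and 99.3 in KYSE510.

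GL000205.2 carried 3 regions called everywhere. GL000205.2:88874-89247 (374 bp) had heights of 58, 56 and 61 in KYSE150 control and 48, 30 and 46 in KYSE150 silenced libraries, with no overlap between the groups. In KYSE510 it had 34, 31 and 25 in control and 24, 35 and 32 in silenced libraries, which overlapped. The second, GL000205.2:140292-141041 (750 bp), stood at 30, 26 and 28 in control and 18, 20 and 25 in silenced libraries of KYSE150, and at 41, 33 and 33 against 30, 23 and 17 in KYSE510. It was lower in every silenced than in every control library in both lines by height. By fold enrichment the groups overlapped, at 13.3 to 14.49 against 6.25 to 13.83 in KYSE150 and 16.67 to 19.63 against 10.71 to 17.03 in KYSE510. The rank test described below gave score differences of -0.39 ± 0.42 and -0.67 ± 0.37 (SE; limma, adjusted p = 0.957 and 0.748). How many of all regions were lower in both lines was not counted. The third, GL000205.2:56106-56831 (726 bp), had 12, 9 and 12 against 6, 6 and 4 in KYSE150 and 15, 23 and 17 against 12, 9 and 16 in KYSE510.

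Heights have to be read against their drift between the groups. Among the 20 regions called in all 12 libraries, 4 had every silenced KYSE150 height below every control height. Over all 28353 regions called in all 12, on any sequence, this was so for 9.14%, and the reverse for 1.02%, which 0 of the 20 showed. In KYSE510 the counts among the 20 were 1 below and 0 above, against 3.69% and 5.14% of all regions. The median height over all 28353 regions was 9, 9 and 9 in control and 8, 8 and 7 in silenced KYSE150 libraries. The regions called in all 12 were thus lower there as a whole too. With 20 members the count of 4 rests on few regions.

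KI270713.1:21289-22120 (832 bp) and GL000220.1:7112-7925 (814 bp) complete the named regions outside the ribosomal units. The first had heights of 12, 9, 8, 11, 8 and 10 in the KYSE150 libraries (control, then silenced) and 49, 21, 25, 35, 32 and 31 in the KYSE510 libraries, so the lines did not overlap. Relative to the median height of each library these were 0.889 to 1.43 and 1.91 to 3.77, again without overlap. How many of all regions separate the lines by height or by relative height was not counted. The second had 10, 20, 15, 7, 9 and 9 in KYSE150 and 11, 10, 10, 9, 10 and 11 in KYSE510. Its range in KYSE510 was narrow, and the lines overlapped. A region at almost the same distance before a ribosomal unit, KI270733.1:24284-24993, had 23, 15, 9, 15, 10 and 7 in KYSE150 and 13, 10, 7, 7, 7 and 5 in KYSE510.

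**Figure D4:**
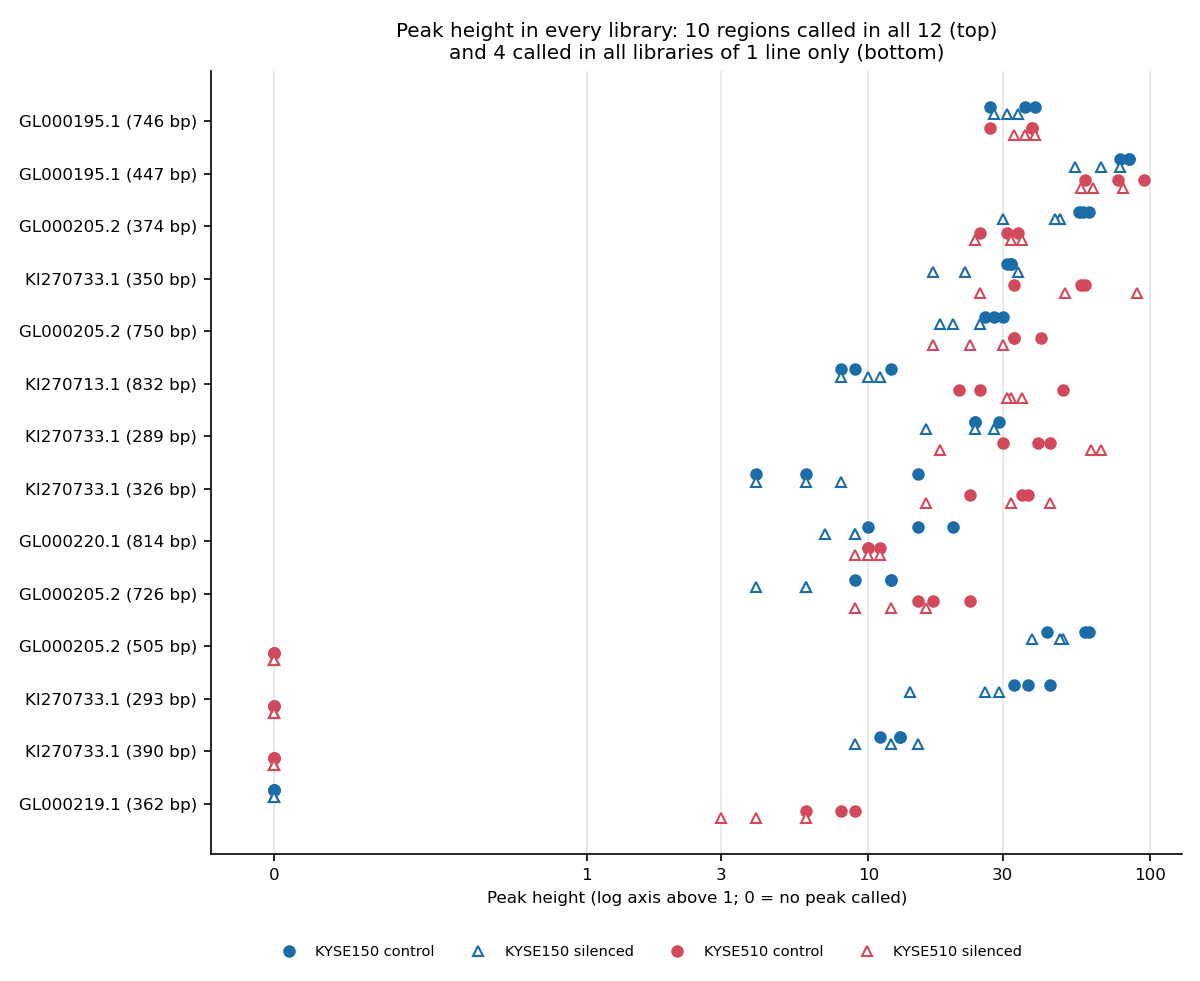
Peak height in each library for the 10 regions called in all 12 libraries with the highest fold-enrichment percentiles (top) and for the 4 named regions called in all 6 libraries of 1 line and none of the other (bottom), labelled by sequence and length; the axis is logarithmic above 1 and 0 stands for no peak. The tallest region of GL000195.1 (447 bp) ranges from 54 to 95, and the 3 KYSE150 regions at the bottom range from 9 to 61 where KYSE510 has no peak.

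Some regions were present in every library of 1 line and absent from the other list. In KYSE150, 9 members were called in all 6 libraries and in none of KYSE510, against 0.132% of all regions of the series. GL000205.2:135430-135934 (505 bp) was the tallest of them, with heights of 43, 59 and 61 in control and 49, 48 and 38 in silenced libraries. The nearest KYSE510 peak of any library was 4358 bp away or more. KI270733.1:128597-128889 (293 bp) had 37, 44 and 33 in control and 14, 29 and 26 in silenced libraries, and KI270733.1:168732-169121 (390 bp) had 11, 13 and 13 against 12, 15 and 9. These 3 regions had heights of 9 or more in every KYSE150 library. KI270733.1:135550-135911 stood at 4 to 13, and the other 5 of the 9 had heights of 1 to 6.

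In KYSE510, 1 member was called in all 6 libraries and in none of KYSE150, against 0.0812% of all regions. This was GL000219.1:40138-40499 (362 bp), with heights of 8, 9 and 6 in control and 3, 6 and 4 in silenced libraries. On the same sequence GL000219.1:42079-42900 was called in all 6 KYSE150 libraries at 6 to 21 and in 3 of the KYSE510 libraries at 3 to 5.

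Over the regions called in all 12 libraries, ranks of fold enrichment within each library were turned into normal scores, on which 1 unit is 1 standard deviation of a library's regions. They were then compared between the lines with limma, a linear model with shared variance estimates. Of all 28353 regions 31.5% differed between the lines at an adjusted p under 0.05, 15.8% higher in KYSE510 and 15.7% higher in KYSE150. Of the 20 members 9 were called, 4 higher in KYSE510 and 5 higher in KYSE150. With peak height in place of fold enrichment 12 were called, 3 higher in KYSE510 and 9 higher in KYSE150, while the calls over all regions numbered 5752 and 5935.

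The largest difference was at KI270733.1:134965-135290, at the end of a 28S gene, which ranked 2.45 ± 0.33 units higher in KYSE510 (SE; limma, adjusted p = 1.68e-05). Next came KI270713.1:21289-22120, which was 1.64 ± 0.24 units higher in KYSE510 (SE; limma, adjusted p = 4.46e-05). KI270467.1:2056-3766 was 0.79 ± 0.23 units higher in KYSE510 (SE; limma, adjusted p = 0.0141), with heights of 4 to 7 in KYSE150 and 12 to 30 in KYSE510. In each of these 3 the heights of the lines did not overlap. Heights are not scaled, and median heights over all 28353 regions were also higher in KYSE510 (11 to 13 against 7 to 9). Divided by the library's median, the 28S region stood at 0.444 to 1.67 in KYSE150 and 1.33 to 3.67 in KYSE510, which overlapped. How many of all regions separate the lines by height was not counted. KI270733.1:173052-173401 was 0.78 ± 0.30 units higher (SE; limma, adjusted p = 0.0493), and it lost the call in 9 of 12 fits that left out 1 library (adjusted p up to 0.135, without the first silenced KYSE510 library) and with peak height in place of fold enrichment (limma, adjusted p = 0.423).

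Higher ranks in KYSE150 were found at 5 regions. GL000008.2:2089-3735 (1647 bp) differed most, by -1.43 ± 0.22 units (KYSE510 minus KYSE150, SE; limma, adjusted p = 7.51e-05), with heights of 5 and 6 in KYSE150 and of 3 and 4 in KYSE510. The tallest region, GL000195.1:30584-31030, ranked -0.94 ± 0.22 units lower in KYSE510 (SE; limma, adjusted p = 0.00318), although its heights overlapped between the lines. GL000219.1:99169-100125 differed by -1.20 ± 0.34 units (SE; limma, adjusted p = 0.0105) and KI270733.1:24284-24993 by -0.96 ± 0.28 units (SE; limma, adjusted p = 0.0134). GL000224.1:3475-4181, at -0.92 ± 0.31 units (SE; limma, adjusted p = 0.0288), lost the call in 5 of 12 fits without 1 library (adjusted p up to 0.0918, without the first silenced KYSE510 library) and among peaks of height 3 or more (limma, adjusted p = 0.197).

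Among the sequences with peaks, 2 carry ribosomal DNA, KI270733.1 and GL000220.1. The RefSeq gene table for GRCh38.p14 gives the positions of the ribosomal genes but not the name of the scaffold they lie on. Their placement here, RNA45SN4 and its genes on KI270733.1 and RNA45SN5 and its genes on GL000220.1, is background knowledge. The table gives RNA45SN4 from 122273 to 135645 and RNA45SN5 from 105424 to 118780. KI270733.1 also holds part of a further unit. Its 18S gene is listed as RNA18SP4, its 5.8S gene as RNA5-8SP9 and its 28S gene as LOC124905332. By the same placement GL000220.1 holds part of a further unit too, with RNA18SP3 from 153050, RNA5-8SP8 and LOC124905315. No library had a peak there, since the last region on GL000220.1 ended at 143322.

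Peaks within the 45S units were found mainly on KI270733.1. RNA45SN4 was overlapped by 37 peaks over the 12 libraries, 3 in each KYSE150 library and 2 to 4 in each KYSE510 library, with heights up to 44. RNA45SN5 on GL000220.1 was overlapped by 7 peaks, at most 1 in a library, with heights up to 18. The 3 units that the table places on chromosome 21 had 0 peaks at RNA45SN1 and RNA45SN2 and 1 peak of height 1 at RNA45SN3. Reads of near-identical copies may be shared between them, and which copy was open was not tested.

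Inside the first unit of KI270733.1 the lines showed peaks at different places. In KYSE150 the strongest region, KI270733.1:128597-128889, lay in the spacer between the 18S gene RNA18SN4 and the 5.8S gene RNA5-8SN4 and reached 13 bp into the latter. KYSE510 had no peak there in any library, the nearest of any library being 429 bp away. KYSE510 had lower peaks instead at KI270733.1:127889-128168, 90 bp after RNA18SN4, with heights of 9, 2 and 0 in control and 5, 2 and 5 in silenced libraries, where 0 means no peak. The same line had peaks at KI270733.1:129931-130193, ending 11 bp before RNA28SN4, with 5, 5 and 0 against 0, 6 and 5. Before the 18S gene KYSE510 had KI270733.1:124632-124896, with 4, 0 and 3 in control and 4, 0 and 3 in silenced libraries, which had no counterpart before the second unit. No KYSE150 library had a peak at any of these 3 places.

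At the end of that unit both lines had a peak within the 28S gene. KI270733.1:134965-135290 overlapped RNA28SN4 by 316 bp and stood at 4, 15, 6, 4, 8 and 6 in KYSE150 and at 37, 23, 35, 44, 16 and 32 in KYSE510. Every KYSE510 height was above every KYSE150 height, but relative to the median height of each library the lines overlapped (0.444 to 1.67 and 1.33 to 3.67). Just behind it, KI270733.1:135550-135911, 270 bp after the gene, was called in all KYSE150 libraries at 9, 13, 4, 4, 9 and 5 and in no KYSE510 library. GL000220.1 had a region at the same place relative to its own 18S gene, GL000220.1:118696-119075, which starts 9618 bp after the start of RNA18SN5, where the former starts 9619 bp after that of RNA18SN4. It was called in all 6 KYSE150 libraries and in 5 of KYSE510, with heights of 7, 11, 12, 3, 6 and 13 and of 13, 0, 6, 18, 3 and 8. The line difference seen behind RNA28SN4 was thus not seen behind RNA28SN5, though no test compared the copies.

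The partial second unit of KI270733.1 held the tallest ribosomal peaks of KYSE510, whereas the tallest of KYSE150 was the spacer region of the first unit. In the second unit both lines had peaks at the same 2 places. KI270733.1:173052-173401 (350 bp) lay between the 18S and 5.8S genes, with heights of 31, 32 and 32 in KYSE150 control, 17, 22 and 34 in KYSE150 silenced, 57, 33 and 59 in KYSE510 control and 90, 25 and 50 in KYSE510 silenced libraries. KI270733.1:175004-175292 (289 bp) lay between the 5.8S and 28S genes and ended 15 bp before the latter, with 24, 29 and 24, then 16, 28 and 24, then 44, 30 and 40, and then 62, 18 and 67 in the same order. Silenced and control values overlapped in both lines at both regions. Counted from the start of the 18S gene of their own unit, these regions span 2040 to 2389 bp and 3992 to 4280 bp. Of the KYSE510 regions of the first unit, those at 1958 to 2237 bp and at 4000 to 4262 bp share these places, whereas the KYSE150 spacer peak of the first unit spans 2666 to 2958 bp and has no counterpart in the second.

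Before the second unit the lines again differed. KI270733.1:168732-169121, 1891 bp before RNA18SP4, was present in all KYSE150 libraries alone, while its neighbour KI270733.1:167989-168268 was called in 5 KYSE150 and 6 KYSE510 libraries at 3 to 11. A KYSE510 peak at KI270733.1:165061-165321 was called in 4 libraries at 3 to 6. That was the only KYSE510 region between KI270733.1:135550-135911 and KI270733.1:167989-168268, where KYSE150 had scattered peaks of height 1 to 5.

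**Figure D5:**
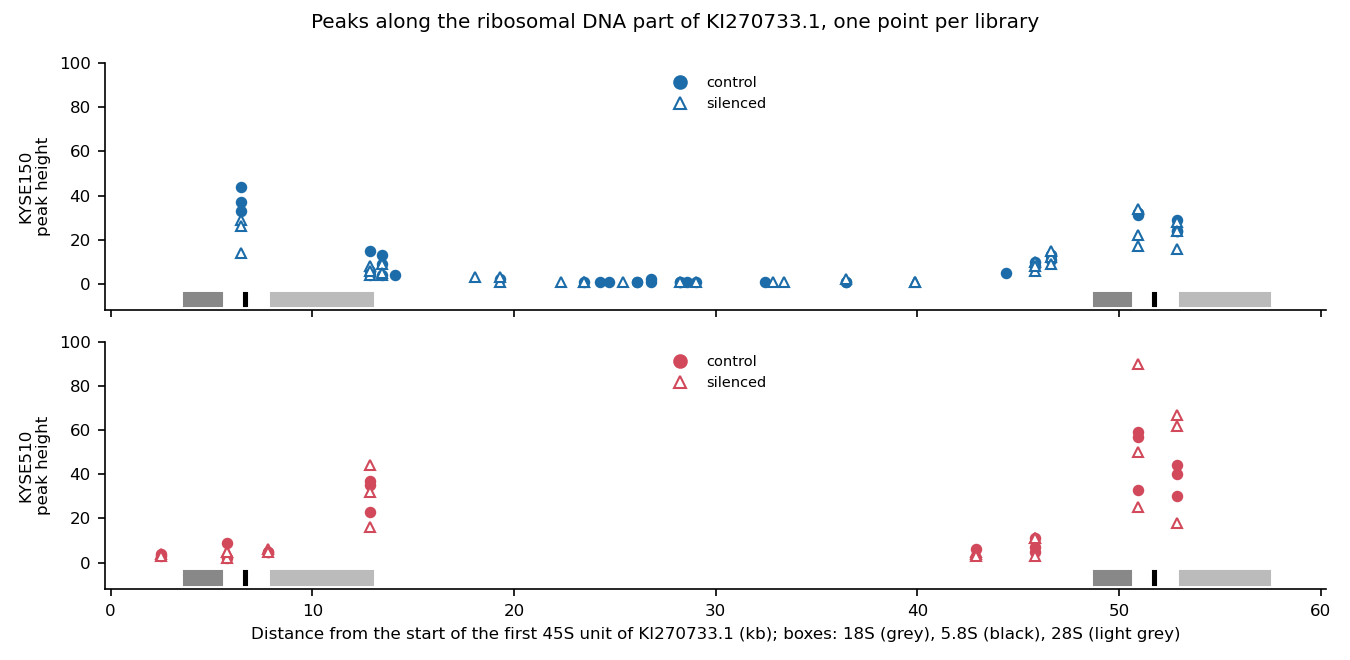
Peaks along KI270733.1 by their distance in kb from the start of the first 45S unit, 1 point per library and peak, for KYSE150 (top) and KYSE510 (bottom); boxes mark the 18S, 5.8S and 28S genes at the positions of the gene table. Between the 18S and 5.8S genes of the first unit, KI270733.1:128597-128889 stands at 14 to 44 in KYSE150 and has no KYSE510 peak. KYSE510 has lower peaks (2 to 9) nearer the 18S gene in 5 libraries. It is higher at the end of the 28S gene (16 to 44 against 4 to 15).

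Silencing of HCP5 was compared with control at each region called in every library of a line, by the same rank test. It made 0 calls among all 45762 KYSE150 regions (0%) and 0 among all 48501 KYSE510 regions (0%; limma, adjusted p under 0.05), hence none among the 42 and 29 members tested. At an unadjusted p under 0.05 there were 2 members of 42 in KYSE150, against 5.33% of all regions, and 4 of 29 in KYSE510, against 7.3%. The median score difference of the members was 0.04 in KYSE150 and -0.06 in KYSE510, against 0.00 and -0.02 over all regions tested. These are few members, and the tested ones are those strong enough to be listed in every library.

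The regions with the smallest p-values had low to middle heights. In KYSE150 they were KI270727.1:1-224, at the very start of its sequence, with heights of 3, 6 and 6 in control and 1, 3 and 1 in silenced libraries (score difference -1.06 ± 0.36, SE; limma, adjusted p = 0.929), and GL000205.2:149066-149468, with 3, 5 and 8 against 3, 1 and 2 (-0.92 ± 0.37, SE; limma, adjusted p = 0.929). GL000205.2:56106-56831 followed (-0.61 ± 0.29, SE; limma, adjusted p = 0.929). In KYSE510, GL000219.1:40138-40499 had the smallest (-1.16 ± 0.42, SE; limma, adjusted p = 0.599). It was followed by GL000220.1:119709-120121, which lies 1292 bp after RNA28SN5, with 14, 8 and 9 against 6, 5 and 8 (-0.90 ± 0.35, SE; limma, adjusted p = 0.621). GL000195.1:22429-23120 was higher after silencing, with 12, 8 and 7 in control and 15, 15 and 13 in silenced libraries (0.80 ± 0.34, SE; limma, adjusted p = 0.658). None of the 6 passed the test.

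The ribosomal peaks likewise did not pass it. In KYSE510 the regions between the genes of the second unit differed by -0.12 ± 0.43 and 0.24 ± 0.46 score units and the 28S region by -0.14 ± 0.47 (SE; limma, adjusted p = 0.977, 0.947 and 0.976). In KYSE150 the spacer region KI270733.1:128597-128889 was lower in every silenced library by height, and its score difference was -0.74 ± 0.40 (SE; limma, adjusted p = 0.929). The spread between libraries was wide at these peaks, as the KYSE510 silenced heights of 90, 25 and 50 show. For a treatment-by-line term, 0 of 20 members were called (limma, adjusted p of 0.896 or more), against 0.00353% of all 28353 regions, and 1 member had an unadjusted p under 0.05, against 5.49%.

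Few members were listed on only 1 side of the treatment. In KYSE150, 9 members had a peak in each control library and in none of the silenced ones, against 0.301% of all regions seen in the line, and 10 showed the reverse, against 0.253%. As shares of the 3201 KYSE150 members these were 0.281% and 0.312%. In KYSE510, 3 members of 303 had a peak in each control library and in none of the silenced ones, against 0.31% of all regions, and 0 showed the reverse, against 0.559%. The counts of each side are small and were not tested. With an FDR of at most 0.05 the KYSE150 counts were 4 and 1 of 397 members, or 1.01% and 0.252%, against 0.479% and 0.141% of all regions. With peaks merged only from 100 bp of overlap the silenced-side count was 3, or 0.0840% of members against 0.133% of all regions.

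Most of the KYSE150 examples were as weak as a listed peak can be. Of the 9 control-side members 6 never rose above a height of 1 in that line, and of the 10 silenced-side members 8. GL000225.1:40832-41079 was a taller control-side region, with 3, 4 and 3 in KYSE150 control libraries and no silenced peak within 8106 bp, and 1 control and 1 silenced KYSE510 library had it at 3. GL000205.2:78774-79267, at 5, 4 and 4, lay 6 bp from a silenced peak of the neighbouring region GL000205.2:78180-78768, which was called in all 6 KYSE150 libraries at 5 to 10. GL000224.1:30643-31309, at 1, 2 and 2, was 88 bp from a silenced peak. Of the 9 control-side regions 3 had a silenced KYSE150 peak within 100 bp, and of the 10 silenced-side regions 1 had a control peak as close.

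On the silenced side, KI270438.1:104551-104863 stood out by height, with 7, 9 and 8 in the 3 silenced KYSE150 libraries. The nearest peak of a KYSE150 control library was 151 bp away or more, and KYSE510 had the region in 2 control libraries, at 3 and 11, and in all 3 silenced libraries, at 4, 5 and 6. Its neighbour KI270438.1:103871-104462 was called in all 3 control libraries of KYSE150, at 9, 10 and 7, and in 2 silenced libraries, at 9 and 8. KI270736.1:62336-62891 stood at 1, 2 and 1, and the other 8 silenced-side regions, among them KI270732.1:19870-20330, stood at 1 in each silenced KYSE150 library.

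In KYSE510 the control-side regions were somewhat taller. KI270442.1:254349-254810 (462 bp) had heights of 10, 7 and 4 in control libraries, with no peak in the silenced ones, and 1 silenced KYSE150 library had it at 1. KI270591.1:4940-5661 had 3, 3 and 4, and 5 KYSE150 libraries of both treatments listed it at 1 to 3. KI270744.1:122407-122682 had 3, 2 and 2 and no KYSE150 peak. The weakest listed KYSE510 peaks had a height of 2.

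By sequence, the effect of silencing had no common direction. Over the 3 libraries of each group, 42 of the 108 sequences had more peaks after silencing in KYSE150, 53 fewer and 13 as many. In KYSE510 it was 18, 26 and 5 of 49. The number of peaks separated the KYSE150 groups without overlap at 3 sequences: GL000219.1 with 88 control and 60 silenced peaks in all, KI270725.1 with 37 and 25, and KI270730.1 with 21 and 35. In KYSE510 this was so at KI270591.1, with 3 and 0. These 4 were picked out after their values were seen, from the 108 and 49 sequences, and were not tested. An exact permutation test of 3 against 3 libraries cannot give a p under 0.1, even for groups without overlap. Separation at so few of the sequences therefore does not show an effect of silencing at these 4. On the ribosomal sequences the groups overlapped in both lines. Fewer cells with an open site and less opening per cell cannot be told apart in such bulk libraries.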

How the data were processed

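ATAC-seq peak lists of 12 libraries, 3 per group, were used as deposited. The submitters' processing notes name Trimmomatic 0.36, Bowtie2 2.2.6, Picard 2.8.2, MACS2 2.1.1, bedtools 2.25.0 and the GRCh38 assembly, with no role or order. Per the file headers, the authors gave each peak its position, a fold enrichment (a ratio to a local background), a p-value, an FDR and a pileup signal, the height. Peaks were called per library. Read depth is unknown, so no counting interval is given.

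Peaks were merged over the 12 lists from 1 bp of overlap. List values were compared with exact permutation tests, non-chromosomal with chromosomal peaks by exact sign flips within libraries, and regions called in every library by normal scores of their fold-enrichment ranks with limma 3.58.1 in R 4.3.3, fitted to all regions and adjusted by Benjamini-Hochberg. The implied background was (height + 1) / fold enrichment - 1. Scripts were tested on simulated data. The line test, recurrence by height and the implied background were added after the data had been seen.

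Named regions were up to 10 called in all 12 libraries, by mean percentile, up to 3 per side among regions of 1 treatment or line, the 3 with the smallest p per line, the members called between the lines and the ribosomal regions. Other regions are named beside them and were chosen after their values were seen. The members and lists were chosen with earlier results of these data known. Replicate numbers were not used as pairs in the main tests. Correlations between same-numbered libraries were 0.00863 to 0.0881, all positive and under the threshold of 0.1. Differently numbered libraries were not correlated for comparison, so weak pairing was not tested.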

Additional observations from a re-analysis of the deposited data

How the results depend on the processing

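The alternatives were stricter peak sets, a 100 bp overlap, other scales, 1 opposing library allowed and each library left out. At an FDR of at most 1e-05 the silenced-minus-control share in KYSE150 turned to 0.00348 percentage points (exact permutation p = 0.8) and the line difference in number to -0.833 (exact permutation p = 0.693). At a height of 3 or more that line difference was -19.5. The difference between the lines in the log2 ratio was -0.17 at an FDR of at most 0.05, -0.18 at 1e-05 and -0.15 at a height of 3. The cause of these turns was not tested.

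With the share of peaks of height 10 or more in place of the FDR share, the KYSE150 difference from chromosomes was -0.0802 points (exact permutation p = 0.656) and the KYSE510 difference -5.92 (exact permutation p = 0.031). With an FDR of at most 1e-05 the KYSE510 difference was -7.12 (exact permutation p = 0.031). Leaving out 1 library gave -1.02 to -0.616 for the KYSE150 FDR share, -3.90 to -2.86 for KYSE150 recurrence and -14.2 to -10.1 for KYSE510 recurrence, each with an exact permutation p of 0.0625, the smallest that 5 libraries allow.

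Counts of regions listed on 1 side changed in size with the settings, as did the share of all regions so listed. The KYSE150 control-side count was 4 at an FDR of at most 0.05, 3 at a height of 3 (1.62% of members against 0.743% of all regions), 20 with 1 opposing library (0.625 against 0.777%) and 10 to 56 without 1 library. On the silenced side of KYSE150 it was 1, 1 (0.541 against 0.282%) and 22 (0.687 against 0.627%), and 3 with the 100 bp overlap, and 12 to 52 without 1 library. KYSE510 gave 6 control-side (1.98 against 1.28%) and 2 silenced-side regions (0.660 against 1.94%) with 1 opposing library, and 4 to 10 and 0 to 3 without 1 library. Regions in all KYSE150 and no KYSE510 libraries numbered 5 at a height of 3 (1.39 against 0.286%) and 9 to 15 without 1 library, and the reverse 2 at an FDR of at most 0.05 (0.374 against 1.70%), 2 at a height of 3 (0.557 against 3.45%) and 1 to 2 without 1 library. Fewer libraries make a one-sided listing easier by construction.

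When replicate number entered as a block, the differences in number stayed at -60.7 in KYSE150 and -17.3 in KYSE510 (exact permutation p = 0.5 each) and those in share at -0.0100 and -0.0165 points (exact permutation p = 0.25 each, the smallest that 3 pairs allow), and limma called 0 members. Without 1 library the differences in number ranged from -119.3 to -25.8 in KYSE150 and from -21.8 to -10.5 in KYSE510, and the difference in log2 ratio from 0.0012 to 0.19. The line test called 7 to 12 of the members over its settings and 7 to 10 without 1 library. Unknown depth and the different lowest heights limit what can be said between the lines.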
